A study of Homo sapiens with 3 samples.

Results

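The collagen chain genes are those whose symbol consists of COL, a type number, A and a chain number. The rule was applied to the symbols alone and used no measured value. It found 44 of the 33538 genes in the count tables. They comprised 11 fibrillar chains, 6 basement membrane chains, 3 multiplexin and anchoring fibril chains, 10 FACIT chains (fibril-associated collagens), 5 beaded filament chains, 3 short chain network chains, 4 transmembrane chains and 2 others.

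The study profiled single cells by droplet RNA sequencing in cultures of H1, an established line of human embryonic stem cells, that were differentiated toward pancreatic beta cells. The 3 libraries were unedited cells (WT), cells labelled PAX6+/- (HET) and cells labelled PAX6-/- (KO), with 1 library per genotype. PAX6 is a transcription factor of the islet, the eye and the brain. How the edit was made, whether each genotype was 1 clone and the day of collection could not be taken from the sources used here. All cells share the H1 origin and the label of derived beta cells.

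Collagens are secreted or membrane proteins built from alpha chains that wind around each other into a helix rich in glycine and proline. Fibrillar collagens form the tensile fibres of connective tissue, and the type II chain COL2A1 is best known from cartilage. Type IV collagen forms the sheet of the basement membrane on which epithelia rest, and the other families decorate fibrils, link cells to the matrix or form finer networks. In the pancreas, islet endocrine cells make little basement membrane of their own and lie against that of the vessels.

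The libraries held 9667, 9628 and 9726 barcodes with 140068492, 136834433 and 145948590 UMIs (unique molecular identifiers, each counting 1 captured RNA molecule), in the order WT, HET and KO, which holds for every set of 3 values below. After filtering, 7969, 7791 and 8082 cells remained. Barcodes shared between libraries numbered 43 for WT and HET, 26 for WT and KO and 30 for HET and KO. Cells with at least 10 UMIs of CHGA (chromogranin A, a protein of endocrine granules) per 10000 UMIs were called CHGA-high and numbered 1407, 538 and 980, or 17.7, 6.91 and 12.1% of the cells kept. The other 6562, 7253 and 7102 cells were called CHGA-low. Of 14 endocrine markers, 13 were higher in the CHGA-high cells. The list summed to between 15668 and 18765 CPM (counts per 1000000 UMIs) there, against 467 to 775 CPM in CHGA-low cells. CHGA itself is 1 of the 14, so its difference and its part of these sums were set by the choice of cells. Most cells under the label of beta cells thus had low endocrine markers. PAX6 itself stood at 336, 255 and 288 CPM in CHGA-high cells, so its RNA was present in all libraries. Since the position of the edit is not given, this does not check the labels.

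Cells with at least 1 UMI of TFAP2B, a transcription factor of surface ectoderm and neural crest, formed the last class, taken from the CHGA-low cells. CHGA-low values include them unless stated. They numbered 652 in HET and 126 in KO, and 0 of 6562 CHGA-low cells in WT. Taking 3 cells as the limit for a count of 0, an approximation, this allows a share of up to 0.0457% in WT. Among the CHGA-high cells, 5, 42 and 7 had a TFAP2B UMI and were not counted in this class. Median depth was 12467, 12508.5 and 12224.5 UMIs per CHGA-high cell and 14258.5, 13740 and 15345.5 per CHGA-low cell. TFAP2B-positive cells had medians of 15348 UMIs in HET and 14843.5 in KO.

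Levels are UMIs summed over the cells of a class in 1 library and expressed in CPM of that sum, scaled by TMM (trimmed mean of M values, which sets the bulk of genes level between sums). Described in full are the 19 chains that reached 20 CPM in at least 1 class of 1 library. The other 25 stayed at or below 18.4 CPM, with 21 of them under 10 CPM and 9 under 1 CPM throughout. Intervals of levels, ratios and shares are exact and at 95%, and they cover counting error only. A sum over a class cannot tell fewer cells with a chain's RNA from less RNA per cell. Of the 44 chains, 15 overlap another listed gene, always on the opposite strand.

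Fibrillar COL2A1 dominated the collagen RNA of these cultures. It lies on chr12:47972965-48004554 (GENCODE 29, GRCh38, minus strand) and encodes the chain of type II collagen, which assembles from this chain alone. Its level was 201, 194 and 107 CPM in CHGA-high cells, 1245, 806 and 1050 CPM in CHGA-low cells, and 511 (HET) and 418 CPM (KO) in TFAP2B-positive cells. The CHGA-low values lay above all others in every library. COL2A1 had a mean of 1034 CPM over the 3 CHGA-low sums, ahead of COL18A1 with 117, COL14A1 with 111 and COL4A2 with 97.6 CPM. COL2A1 alone made up 61.5, 51.1 and 61.1% of all collagen UMIs in CHGA-low cells and 39.4, 35.2 and 28.3% in CHGA-high cells.

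The COL2A1 signal was spread over most CHGA-low cells and over few CHGA-high cells. With each cell thinned to 3000 UMIs, 78.7, 71.7 and 81.1% of CHGA-low cells had a COL2A1 UMI against 17.5, 20.4 and 15.4% of CHGA-high cells. Unthinned, the shares were 91.9, 92.5 and 95.4% against 37.0, 47.6 and 40.3%. In CHGA-high cells the 10% of cells with the most of it held 87.5, 78.1 and 77.5% of its UMIs, compared with 30.7, 33.6 and 28.9% in CHGA-low cells. The part of free RNA in the low CHGA-high share was not tested. A list of 9 other cartilage genes was added after the levels were seen. Of these, 3 were lower in CHGA-high than in CHGA-low cells, 2 were higher and 4 were not called. Over all 18879 genes in this comparison, described below, 12.7% were called lower and 15.4% higher. CNMD, COMP and MATN1 stayed at or below 1.51 CPM in CHGA-high and CHGA-low cells, and HAPLN1 at or below 3.17 CPM. ACAN (aggrecan) stood at 0.846, 0.446 and 0.220 CPM in CHGA-low cells and MATN3 (matrilin) at 3.35, 2.04 and 1.97 CPM, while SOX9, which also marks pancreatic progenitors, stood at 65.5, 42.4 and 39.9 CPM. Its partner SOX5 stood at 27.5, 38.3 and 37.3 CPM in CHGA-low cells and at 44.9, 60.7 and 61.8 CPM in CHGA-high cells.

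**Figure D1:**
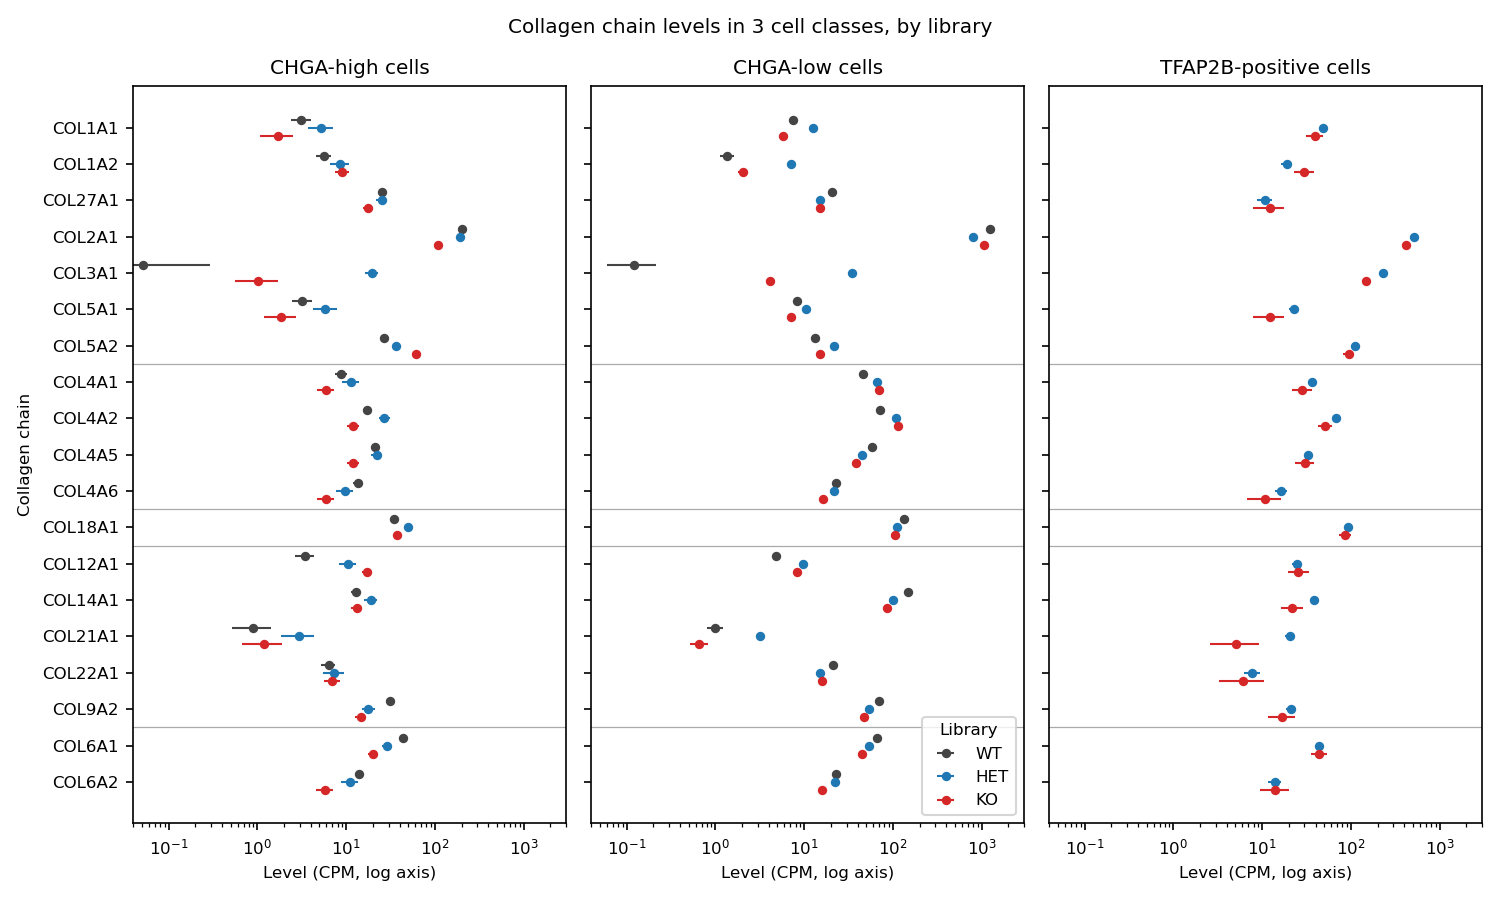
Levels of the 19 chains described in full (rows, grouped from top to bottom as fibrillar, basement membrane, multiplexin, FACIT and beaded filament) in CPM on a log axis, with 1 point per library and exact 95% Poisson intervals for counting error. COL2A1 reaches 806 to 1245 CPM in CHGA-low cells, and COL3A1 spans from 0.121 CPM in WT to 34.8 CPM in HET there.

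The other fibrillar chains were at far lower levels, and several of them differed from COL2A1 in where they were found. COL3A1, the chain of type III collagen of soft connective tissue, stood at 0.0520, 19.3 and 1.03 CPM in CHGA-high cells and at 0.121, 34.8 and 4.11 CPM in CHGA-low cells. In TFAP2B-positive cells it reached 232 (HET) and 149 CPM (KO). Its gene at chr2:188974320-189012746 (plus strand) has COL5A2 at chr2:189031896-189225312 (minus strand) as its neighbour. COL5A2, a chain of the type V collagen that sets fibril width, stood at 27.0, 36.7 and 61.0 CPM in CHGA-high cells, at 13.1, 21.7 and 14.9 CPM in CHGA-low cells and at 111 and 94.8 CPM in TFAP2B-positive cells. It was therefore highest in TFAP2B-positive cells and next in CHGA-high cells of the same library.

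The type I chains had their highest levels in the TFAP2B-positive cells. COL1A1 stood at 3.12, 5.21 and 1.69 CPM in CHGA-high, 7.50, 12.6 and 5.73 CPM in CHGA-low and 49.0 and 39.2 CPM in TFAP2B-positive cells. COL1A2 stood at 5.56, 8.51 and 8.94 CPM, at 1.34, 7.02 and 2.05 CPM, and at 18.9 and 29.9 CPM in the same classes. These chains normally join in 1 molecule. The ratio of COL1A1 to COL1A2 UMIs was 0.561, 0.612 and 0.189 in CHGA-high cells (60 against 107, 41 against 67 and 23 against 122 UMIs). It was 5.60, 1.79 and 2.80 in CHGA-low cells, and 2.59 (HET) and 1.31 (KO) in the TFAP2B-positive cells among them. These are ratios of sums over a class and do not describe single cells. The ratio thus lay below 1 in CHGA-high cells and above 1 in CHGA-low cells of each library. COL5A1, the partner of COL5A2, ranged from 1.83 to 10.4 CPM in CHGA-high and CHGA-low cells and stood at 22.6 and 12.1 CPM in TFAP2B-positive cells. COL27A1, a fibrillar chain of growing cartilage, ranged from 10.7 to 25.4 CPM across the classes and libraries. COL24A1, COL11A1 and COL11A2 stayed at or below 11.4, 10.5 and 6.30 CPM, and COL5A3 at or below 0.0988 CPM.

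Among the basement membrane chains, COL4A1 and COL4A2 had the highest mean levels over the CHGA-low sums and tracked each other closely. They form the common type IV network of nearly all basement membranes. COL4A1 stood at 8.68, 11.3 and 5.86 CPM in CHGA-high cells, at 46.4, 67.0 and 70.5 CPM in CHGA-low cells and at 36.7 and 28.5 CPM in TFAP2B-positive cells. COL4A2 stood at 17.4, 26.9 and 12.1 CPM, at 72.3, 107 and 114 CPM, and at 67.9 and 51.3 CPM. In CHGA-low cells the 2 chains had 1.56, 1.60 and 1.61 COL4A2 UMIs per COL4A1 UMI, with longest transcripts of 6494 and 6616 bases. Across 17 clusters of cells, made without the collagen genes, the log2 levels of these chains correlated with Pearson r = 0.990 and Spearman rho = 0.985. This was the highest r of 171 pairs among the 19 chains, whose median was 0.288. The clusters share libraries and depth, so this is a description.

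These chains are also paired in the genome, and the sequence between their starts is shown as a description only. COL4A1 is read leftward and COL4A2 rightward on chromosome 13, COL4A6 leftward and COL4A5 rightward on chromosome X, and COL4A4 leftward and COL4A3 rightward on chromosome 2. In RefSeq on GRCh38.p14 the starts of COL4A1 (110307157) and COL4A2 (110307284) leave 126 bases between them, of which 80.2% are G or C. COL4A6 also has a RefSeq start at 108438422, and the start nearer to COL4A5 was used. For COL4A6 (108439458) and COL4A5 (108439838), 379 bases lie between the starts. The 121 bases that lie in the upstream window of both are 44.6% G or C. Both are on the plus strand, 5′ to 3′, with capitals for CCAAT or its reverse complement ATTGG and for GGGCGG, searched on both strands.
COL4A1 and COL4A2, chr13:110307158-110307283: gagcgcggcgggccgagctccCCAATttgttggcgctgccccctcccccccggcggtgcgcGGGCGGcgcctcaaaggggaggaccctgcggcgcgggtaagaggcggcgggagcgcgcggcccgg
COL4A6 and COL4A5, chrX:108439588-108439708: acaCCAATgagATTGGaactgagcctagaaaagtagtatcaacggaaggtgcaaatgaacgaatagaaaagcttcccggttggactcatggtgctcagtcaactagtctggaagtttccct

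The motifs are common, so their presence is a description only. CCAAT on either strand was in 32.0% of all 35116 RefSeq windows of 250 bases upstream of a start and in 12 of the 44 windows of collagen chains (27.3%). GGGCGG was in 42.6% of all windows and in 24 of the 44 (54.5%). These 44 windows belonged to 32 chains, and the other 12 chains, COL2A1 and COL3A1 among them, had none in the table. The 82 bases shared by the COL4A4 and COL4A3 windows held neither motif.

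The other type IV pairs had lower means over the CHGA-low sums. COL4A5 stood at 21.0, 21.98 and 11.9 CPM in CHGA-high cells, at 58.0, 45.0 and 38.7 CPM in CHGA-low cells and at 32.6 and 30.3 CPM in TFAP2B-positive cells. Its neighbour COL4A6 stood at 13.6, 9.66 and 5.86 CPM, at 22.6, 21.8 and 16.5 CPM, and at 16.4 and 10.7 CPM. This pair correlated across clusters with r = 0.785, the 13th of 171 pairs in rank. COL4A3 and COL4A4, which join COL4A5 in the kidney's filter, stayed at or below 1.25 and 5.28 CPM. The CHGA-low means were 97.6 CPM for COL4A2, 61.3 for COL4A1, 47.2 for COL4A5, 20.3 for COL4A6, 3.95 for COL4A4 and 0.840 for COL4A3.

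Multiplexin COL18A1, a basement membrane collagen whose end fragment is endostatin, was broadly present. It stood at 34.4, 49.8 and 37.7 CPM in CHGA-high, 135, 112 and 105 CPM in CHGA-low and 92.5 and 86.4 CPM in TFAP2B-positive cells. The related COL15A1 stayed at or below 0.104 CPM, and COL7A1 of the skin's anchoring fibrils at or below 4.45 CPM.

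Of the FACIT chains, COL14A1 and COL9A2 were mainly in CHGA-low cells. COL14A1, which binds type I fibrils, stood at 12.8, 18.8 and 13.1 CPM in CHGA-high, 148, 99.4 and 86.6 CPM in CHGA-low and 38.9 and 21.9 CPM in TFAP2B-positive cells. COL9A2 stood at 30.8, 17.8 and 14.6 CPM, at 70.4, 53.1 and 47.4 CPM, and at 21.2 and 16.8 CPM. Type IX collagen coats type II fibrils and is usually built from COL9A1, COL9A2 and COL9A3. The CHGA-low means, however, were 57.0 CPM for COL9A2, 0.836 for COL9A3 and 0.201 for COL9A1. COL22A1 of tissue junctions ranged from 6.34 to 21.3 CPM in CHGA-high and CHGA-low cells.

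COL12A1, a FACIT of tendon and fascia, stood at 3.43, 10.4 and 17.2 CPM in CHGA-high, 4.85, 9.70 and 8.25 CPM in CHGA-low and 24.5 and 25.7 CPM in TFAP2B-positive cells. COL21A1 stood at 0.884, 2.92 and 1.17 CPM in CHGA-high cells, at 0.999, 1.20 and 0.566 CPM in CHGA-low cells without TFAP2B UMIs, and at 20.7 (HET) and 5.13 CPM (KO) in TFAP2B-positive cells. A like gap between partner chains appeared for the beaded filament type VI, which joins cells to the matrix. COL6A1 stood at 43.4, 29.1 and 19.9 CPM in CHGA-high, 66.8, 53.9 and 44.5 CPM in CHGA-low and 44.3 and 43.9 CPM in TFAP2B-positive cells, and COL6A2 between 5.72 and 22.6 CPM. The CHGA-low means were 55.1 CPM for COL6A1, 20.2 for COL6A2 and 0.674 for COL6A3, the chain that completes the usual molecule.

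Basement membrane chains were set against fibrillar chains as the share of COL4A1 to COL4A6 in the UMIs of both groups. COL18A1, also a basement membrane collagen, is in neither group and is left out of this share. With all 11 fibrillar chains the share was 19.3, 19.5 and 17.1% in CHGA-high and 13.5, 20.8 and 18.0% in CHGA-low cells. The difference within a library was 5.88, -1.26 and -0.82 percentage points, a mean of 1.26 ± 4.002 (SD, n = 3), so its direction was not the same in each library. Leaving out COL2A1, an alternative added after the data were seen, gave shares of 48.3, 40.8 and 30.6% in CHGA-high and 73.0, 66.5 and 78.0% in CHGA-low cells. The basement membrane share was then lower in CHGA-high cells of every library, by a mean difference of -32.6 ± 12.8 points (SD, n = 3). With 3 libraries an exact sign permutation test could not reach 0.05, so none was run. In TFAP2B-positive cells the share was 13.9% in both libraries, and 25.5% (HET) and 26.4% (KO) without COL2A1. Fibrillar chains other than COL2A1 took 31.8 and 30.1% of all collagen UMIs there, against 3.76, 5.34 and 3.69% in CHGA-low cells without TFAP2B UMIs.

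**Figure D2:**
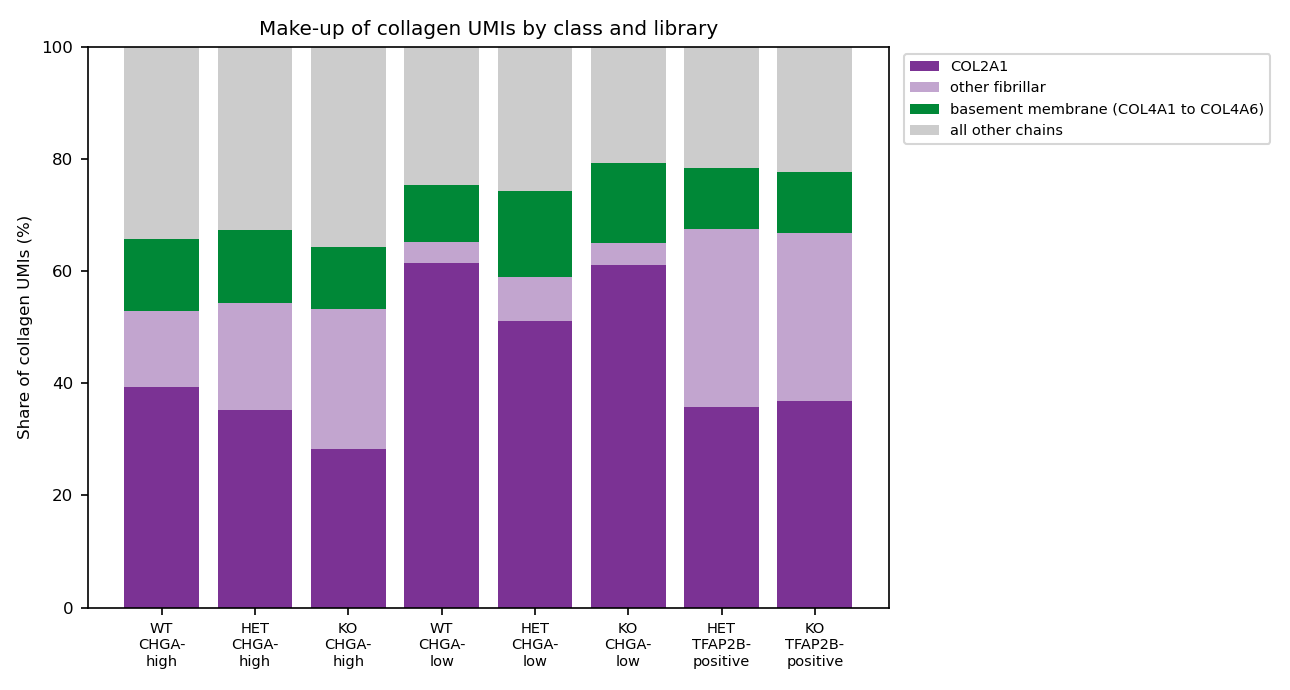
Share of all collagen UMIs (percent, bars from 0 to 100) held by COL2A1, the other fibrillar chains, the COL4 chains and all other chains in each class and library. COL2A1 holds 51.1 to 61.5% in CHGA-low cells, and the other fibrillar chains hold 31.8 and 30.1% in TFAP2B-positive cells.

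Collagen RNA was lower in CHGA-high than in CHGA-low cells for most of the abundant chains, and a few chains went the other way. In WT all chains together stood at 510 CPM in CHGA-high and 2024 CPM in CHGA-low cells. The comparison summed counts per library and class and used edgeR's quasi-likelihood test with the library as a block and Benjamini-Hochberg adjustment over all genes. A gene was called when its adjusted p was under 0.05 and its fold at least 2. Of 38 chains with enough counts to test, 4 were higher, 18 lower and 16 not called. Over all 18879 genes tested 15.4% were called higher, 12.7% lower and 28.1% either way. The median log2 difference was -0.88 over the chains and -0.00 over all genes. The p-values measure the spread between 3 libraries that differ in genotype.

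Among basement membrane chains, 4 of 6 were lower in CHGA-high cells and none was higher. COL4A1 was lower with a log2 difference of -2.75 (SE 0.23, edgeR adjusted p = 0.000429), and COL4A2 with -2.33 (SE 0.25). COL4A5 was lower with -1.32 and COL4A6 with -1.02. COL4A3 and COL4A4 were not called, with -0.01 and -0.11. The COL4A6 call sits at the 2-fold limit and was lost without the KO library (-0.85) and, by a narrow margin, without HET (-0.999), and also with doublets kept (-0.82) and with plain CPM (-0.93). The multiplexin COL18A1 was lower with -1.46 (SE 0.16).

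Fibrillar chains split, with 7 of 10 lower and 2 higher in CHGA-high cells. COL2A1 was lower with a log2 difference of -2.58 (SE 0.23, edgeR adjusted p = 0.000548), and the difference within WT, HET and KO was -2.63, -2.06 and -3.29. COL11A1, which joins COL2A1 in cartilage fibrils, was lower with -3.39 and COL24A1 with -2.86. COL1A1 was lower with -1.33, COL5A1 with -1.28 and COL11A2 with -1.05. The COL11A2 call sits at the 2-fold limit and was lost without WT (-0.94, edgeR adjusted p = 0.0632), with doublets kept (-0.71), with a CHGA threshold of 5 (-0.85), with the strict cell filter (-0.90) and with plain CPM (-0.95).

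COL5A2 and COL1A2 were the fibrillar chains that were higher in the CHGA-high sums. COL5A2 was higher with a log2 difference of 1.37 (SE 0.25, edgeR adjusted p = 0.00662), and by library with 1.04, 0.76 and 2.03. It fell under 2-fold without the KO library (0.97). The 10% of CHGA-high cells with the most COL5A2 held 98.7, 87.5 and 93.6% of its UMIs. Over the libraries together COL5A2 stood at 100 plain CPM in cluster 10. In clusters 11, 13, 14 and 16, where most cells were also CHGA-high, it stood at 4.31, 10.5, 19.3 and 9.31. The higher sum is thus not a trait of all CHGA-high cells. COL1A2 was higher with 1.58 (SE 0.40, edgeR adjusted p = 0.0202), and by library with 2.05, 0.28 and 2.13. Its call was lost without KO (1.22, adjusted p = 0.0531) and without WT (1.28, adjusted p = 0.0711). COL3A1 was called lower with -1.15, but its CHGA-low sums held 3744 UMIs in HET and 11 in WT, and against CHGA-low cells without TFAP2B UMIs its difference was 0.29 (edgeR adjusted p = 0.437).

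Among FACIT chains, 4 of 10 were lower in CHGA-high cells and none was higher. COL14A1 was lower with a log2 difference of -2.82 (SE 0.23), COL9A3 with -2.87, COL9A2 with -1.39 and COL22A1 with -1.28 (-0.97 and not called with a CHGA threshold of 5). COL12A1 was not called (0.35, SE 0.31), with -0.50, 0.10 and 1.06 by library. The beaded filament chains stayed under 2-fold, with -0.80 for COL6A1 and -0.95 for COL6A2 (edgeR adjusted p = 0.00257 and 0.00498). COL6A2 passed 2-fold without WT (-1.19).

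The transmembrane chains were rare, yet 2 of 4 were higher in CHGA-high cells. COL13A1, found at nerve-muscle contacts, stood at 3.38, 2.29 and 4.54 CPM against 0.560, 0.436 and 0.309 CPM and was higher with a log2 difference of 3.05 (SE 0.38, edgeR adjusted p = 0.00151). COL25A1, a collagen of neurons, stood at 4.99, 8.77 and 0.659 CPM against 1.05, 0.780 and 0.459 CPM and was higher with 2.38 (SE 0.53). Its call was lost without HET (1.68, adjusted p = 0.0575). The hemidesmosome chain COL17A1 was lower with -2.12, as was COL28A1 with -1.54. Of 8 neuronal markers, 7 were also higher in CHGA-high cells, with a summed level of 1862, 1620 and 2162 CPM against 175 to 330 CPM. COL25A1 did not follow that sum across libraries, being lowest in KO. By cluster, COL13A1 was highest in cluster 10, led by LINC00682, TLX2 and PHOX2A (8.49 plain CPM over the libraries together). COL25A1 stood at 0.885 there and was highest in cluster 11, led by GCG, IAPP and PYY (12.6). The part of the neuronal markers in the result was not tested.

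**Figure D3:**
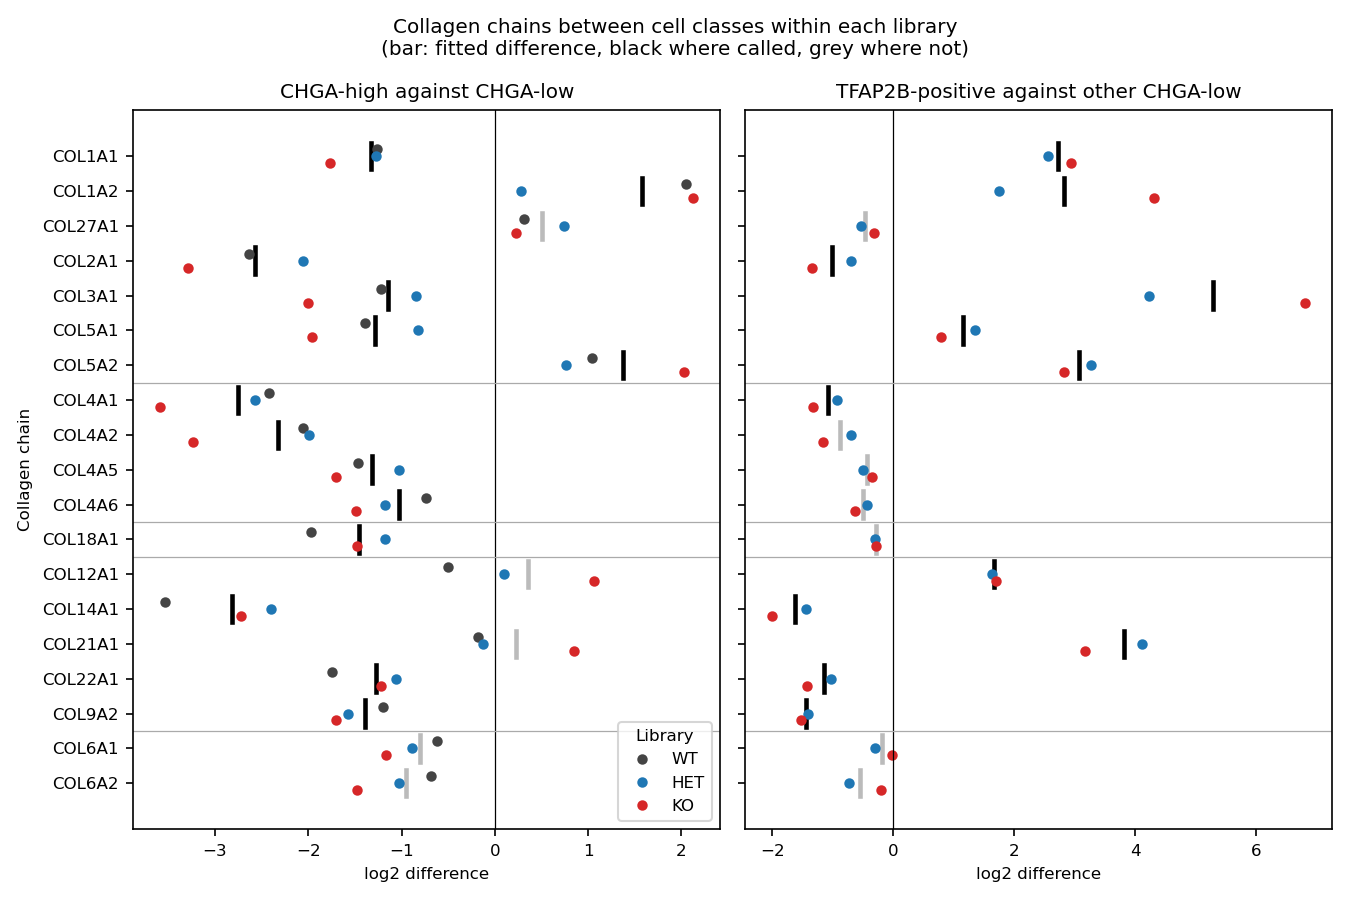
Log2 difference between classes within each library (points) and the fitted difference (bars, black where called and grey where not) for the 19 chains. On the left COL1A2 and COL5A2 are the black bars right of 0, and on the right COL3A1 lies farthest from 0 with 4.24 in HET and 6.82 in KO.

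Markers of other cell types, depth and RNA quality also differed between these classes, and their part in the result was not tested. All 5 cycling markers were lower in CHGA-high cells, summing to 30.3, 45.0 and 26.6 CPM against 119, 199 and 112 CPM. Of 7 duct and progenitor markers 5 were lower and 1 higher (409, 466 and 250 against 1634, 2198 and 963 CPM), of 7 epithelial markers 4 were lower (2554, 2767 and 2068 against 4657, 4347 and 3720 CPM), and of 7 liver markers 4 were lower and 1 higher. Of 9 tested mesenchymal markers 2 were higher and 3 lower (55.2, 55.4 and 71.1 against 49.4, 66.3 and 42.4 CPM), and 4 of the 13 listed had 0 UMIs in CHGA-high cells of each library. Of 3 tested endothelial markers 2 were higher, and the 7 listed summed to 95.8, 73.7 and 35.6 CPM against 57.6, 39.3 and 27.4 CPM. The median share of mitochondrial UMIs was 6.55, 8.61 and 9.26% in CHGA-high and 4.74, 6.23 and 5.42% in CHGA-low cells.

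The genes that fold, trim and bind collagen followed the chains only in part, and the lists below hold no chain. Of 20 genes for collagen modification and folding, 8 were lower in CHGA-high cells and none was higher. They included CRTAP of the prolyl 3-hydroxylation complex (log2 difference -1.99), the collagen chaperone SERPINH1 (-1.94) and the prolyl 4-hydroxylase P4HA1 (-1.77). Of 17 tested other basement membrane proteins, 11 were lower and none higher, led by the laminin chains LAMA3 (-3.15) and LAMA1 (-2.63) and by SPARC (-2.49), which binds type IV collagen. SPARC also differed between libraries. In HET it was 13.2-fold higher than in WT in CHGA-high cells and 2.57-fold higher in CHGA-low cells. Its class difference was therefore smaller in HET than in WT. Without TFAP2B-positive cells the CHGA-low ratio of SPARC was 1.33-fold. The CHGA-high ratio was not repeated without the CHGA-high cells that had a TFAP2B UMI. LAMA1 stood at 53.1, 78.0 and 39.2 CPM in CHGA-high and 323, 395 and 359 CPM in CHGA-low cells.

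Of 13 tested fibrillar matrix partners, 1 was higher and 4 were lower, with FBN2 (fibrillin) at -2.96, TNC (tenascin) at -2.80 and FN1 (fibronectin) at -2.72. Of 14 cleavage and cross-linking genes, 2 were higher and 3 lower. The lysyl oxidase LOXL4 was higher with 5.33 and stood at 111, 103 and 95.8 CPM in CHGA-high against 3.47, 2.05 and 2.78 CPM in CHGA-low cells. The peroxidase PXDN, which cross-links type IV collagen, was lower with -1.06, and LOXL1 did not reach 2-fold (-0.65). Of 9 tested collagen receptors, 1 was higher and 2 were lower. ITGA1, the integrin chain that binds type IV collagen, was higher with 3.51 and stood at 45.8, 59.8 and 46.4 CPM against 5.22, 5.09 and 3.82 CPM. ITGB1, the partner of ITGA1, reached 0.96 and DDR1 -0.13, and neither was called. Of 8 tested collagen degrading proteases and inhibitors, 2 were higher and 4 lower, among them MMP1 (-2.59), MMP14 (-1.64) and the inhibitor TIMP3 (-1.19).

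TFAP2B-positive cells carried a fibrillar set that the other CHGA-low cells had at low levels. The class is set by 1 UMI and is not 1 cluster of cells. A TFAP2B UMI was found in 79.4% of cells in cluster 12, led by TFAP2B, and in 0.581 to 2.07% in clusters 1 to 9. Over the libraries together cluster 12 had COL2A1 at 327, COL14A1 at 6.88 and COL3A1 at 321 plain CPM. The class levels therefore mix cells of several clusters. This comparison rests on HET and KO, which differ in genotype, since WT had no such cell. It leaves 1 residual degree of freedom per gene, so the p-values lean on the spread shared over all genes. Of 38 tested chains, 9 were higher, 8 lower and 21 not called. Over all 18473 genes tested 7.34% were called higher, 7.12% lower and 14.5% either way. The median log2 difference was -0.41 over the chains and -0.09 over all genes.

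Fibrillar chains gave 5 of the 9 higher calls and 3 of the 8 lower ones. COL3A1 was higher with a log2 difference of 5.29 (SE 0.13), and by library with 4.24 in HET and 6.82 in KO. COL5A2 was higher with 3.07 (SE 0.12), COL1A2 with 2.83, COL1A1 with 2.72 and COL5A1 with 1.15. For COL1A2 the libraries had 1.76 (HET) and 4.31 (KO). COL24A1 was lower with -1.77 and COL11A1 with -1.40. COL2A1 was lower with -1.002 and lies at the 2-fold limit, with -0.70 in HET and -1.35 in KO. With doublets kept it had -0.82 and was not called.

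Of 6 basement membrane chains, 1 was lower in TFAP2B-positive cells and none higher. COL4A1 was lower with -1.07 (SE 0.13), while COL4A2 did not reach 2-fold (-0.88, SE 0.11). COL4A6 had -0.49, COL4A5 -0.44 and COL18A1 -0.29, and none was called. Both sit near the 2-fold limit, since COL4A1 lost its call with doublets kept (-0.85) and COL4A2 gained one with at least 2 TFAP2B UMIs required (-1.53). Of 9 tested FACIT chains, COL21A1 was higher with 3.82 (SE 0.33) and COL12A1 with 1.66 (SE 0.18). COL14A1 was lower with -1.63, COL9A2 with -1.44 and COL22A1 with -1.14 (-0.76 and not called with doublets kept). Transmembrane COL13A1 was higher with 4.48 (SE 0.66), at 2.92 (HET) and 5.60 CPM (KO), and COL17A1, a chain of skin epithelium, with 2.05 (SE 0.28), at 11.6 and 10.7 CPM. COL28A1 was lower with -1.99 (SE 0.83), a call that held under 1 of 10 alternatives of the test.

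Some partner genes of fibrillar collagen were also higher in these cells. Of 13 tested fibrillar matrix partners, 4 were higher and 2 lower. The fibril-binding DCN (decorin) was higher with 5.55, at 71.7 (HET) and 33.1 CPM (KO), LUM (lumican) with 4.55, at 58.8 and 7.94 CPM, and FBN2 with 1.95. SPARC was higher with 3.72, at 261 and 293 CPM, and FREM2 with 1.81, within 3 higher and 3 lower of 17 basement membrane proteins, where LAMA3 was lower with -1.62. Of 20 modification genes, 1 was higher and 2 were lower, P4HA2 with -1.38 and PLOD2 with -1.17. Of 14 cleavage and cross-linking genes, 3 were higher and 2 lower, with BMP1 at -1.07. Of 8 proteases and inhibitors, 2 were higher and 1 lower, with TIMP3 at 1.45 and MMP1 at -1.20. Of 9 receptors, 1 was higher and 1 lower.

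Markers of other cell types moved with these chains, and their part in the result was not tested. Of 10 TFAP2B ectoderm markers, 8 were higher, and the list summed to 3234 and 3309 CPM against 1095 and 936 CPM in the other CHGA-low cells. TFAP2B itself is 1 of the 8 and was set by the choice of cells, at 283 and 356 CPM of these sums and at 0 in the other cells. Of 11 tested mesenchymal markers, 4 were higher and 2 lower, and 2 of the list, DCN and LUM, are also among the partners above. The mesenchymal list summed to 187 and 89.2 CPM against 52.0 and 41.5 CPM, with 3 and 4 of its 13 genes at 0 UMIs. PDGFRA stood at 0.638 and 0.467 CPM in TFAP2B-positive cells, PRRX1 at 1.37 and 0 CPM, and TCF21 and FOXF1 at 0. All 5 cycling markers were higher, 6 of 7 duct and progenitor markers were lower, and none of 7 epithelial markers was called. The epithelial list summed to 4608 and 4920 CPM. Of 7 liver markers, 6 were lower, and the list summed to 2691 and 2273 CPM against 6714 and 8067 CPM. The median share of mitochondrial UMIs was 6.95% (HET) and 7.07% (KO) against 6.15 and 5.39% in the other CHGA-low cells.

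The libraries are compared next, and with 1 library per genotype no difference between them could be tested. A chain counts as different when it passed 2-fold with at least 10 CPM in 1 of the sums and at least 20 UMIs in both together. Ratios have exact conditional binomial intervals. Scaling by plain CPM in place of TMM moved the median log2 ratio of all genes by over 0.1 in 4 of the comparisons, for KO against WT from -0.03 to 0.11 in CHGA-high and from -0.04 to 0.07 in CHGA-low cells, for HET against WT from -0.05 to 0.08 in CHGA-low cells, and for KO against HET from -0.00 to 0.10 in CHGA-high cells.

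In CHGA-low cells the KO library had more COL4A1 and COL4A2 RNA than WT and less of most other chains that reached 10 CPM. Of 15 such chains, 4 were higher and 11 lower under both scalings. None of the 15 passed 2-fold, where 2.97% of all 9473 genes did. The chains' median log2 ratio was -0.41, compared with -0.04 over all genes. COL4A2 was 1.57-fold higher (interval 1.52 to 1.62) and COL4A1 1.52-fold higher (1.46 to 1.58). COL14A1 was 1.71-fold lower (1.66 to 1.75), COL6A1 1.502-fold lower and COL9A2 1.48-fold lower. COL4A5 was 1.499-fold lower, so the type IV pairs went opposite ways. Under 10 CPM, and so not among the 15, COL3A1 was 34.0-fold higher (18.8 to 68.6; 466 against 11 UMIs), or 10.9-fold higher without TFAP2B-positive cells, and COL11A2 was 2.83-fold lower (2.43 to 3.29).

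The HET library also had more COL4A1 and COL4A2 than WT, and it stood apart for COL3A1. Of 19 chains, 1 passed 2-fold, with 2.56% of 9531 genes as background. COL3A1 had 3744 UMIs in HET and 11 in WT, a 288-fold ratio (161 to 577). COL4A2 was 1.48-fold higher (1.44 to 1.53) and COL4A1 1.44-fold higher (1.39 to 1.4999). COL1A1 and COL5A2 were 1.68-fold and 1.66-fold higher, and COL2A1 was 1.54-fold lower (1.53 to 1.56). Without TFAP2B-positive cells COL5A2 was 1.14-fold lower and COL3A1 102-fold higher (1201 against 11 UMIs). This leaves in the cells of cluster 12, led by TFAP2B and described below, that had no TFAP2B UMI. Over the libraries together 79.4% of its cells had one, and in HET it held 88.1% of the COL3A1 UMIs. The 1201 UMIs are therefore not a count from outside that cluster. Between KO and HET, 2 of 18 chains passed 2-fold, with 1.38% of genes as background. COL3A1 was 8.46-fold lower in KO (7.68 to 9.33) and COL1A1 2.19-fold lower.

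In CHGA-high cells the KO library had more COL12A1 and COL5A2 and less of 4 other chains than WT. Of 13 chains, 2 passed 2-fold upward and 4 downward. Of all 9703 genes 1.77% passed upward, 4.84% downward and 6.62% either way. COL12A1 had 235 against 66 UMIs and was 5.02-fold higher (3.80 to 6.70), and COL5A2 was 2.26-fold higher (2.02 to 2.53). COL6A2 was 2.46-fold lower, COL4A6 2.32-fold, COL6A1 2.18-fold and COL9A2 2.11-fold. COL4A2, higher in KO in the CHGA-low sums, was here 1.44-fold lower (1.19 to 1.74), and the difference between the classes was not tested. With plain CPM the log2 ratios of COL6A1 and COL9A2 were -0.99 and -0.94, under 2-fold, and with doublets kept that of COL4A6 was -0.91.

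HET against WT in CHGA-high cells passed 2-fold for 2 of 15 chains, with 2.43% of 9668 genes as background. COL3A1 had 152 UMIs against 1, a ratio of 372 (65.7 to 14770), and COL12A1 was 3.04-fold higher (2.17 to 4.27). The COL3A1 UMIs lay in 42 of 538 HET cells, with up to 25 in 1 cell. The CHGA-high sums included 5, 42 and 7 cells with a TFAP2B UMI, and no CHGA-high ratio was repeated without them. KO against HET passed for 2 of 14, with 2.89% as background. COL3A1 was 18.8-fold lower in KO (10.9 to 35.3) and COL4A2 2.23-fold lower (1.81 to 2.75). In TFAP2B-positive cells KO against HET passed for 1 of 20, with 2.43% of 9536 genes as background. COL21A1 was 4.03-fold lower (2.21 to 8.18), on 11 against 227 UMIs.

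**Figure D4:**
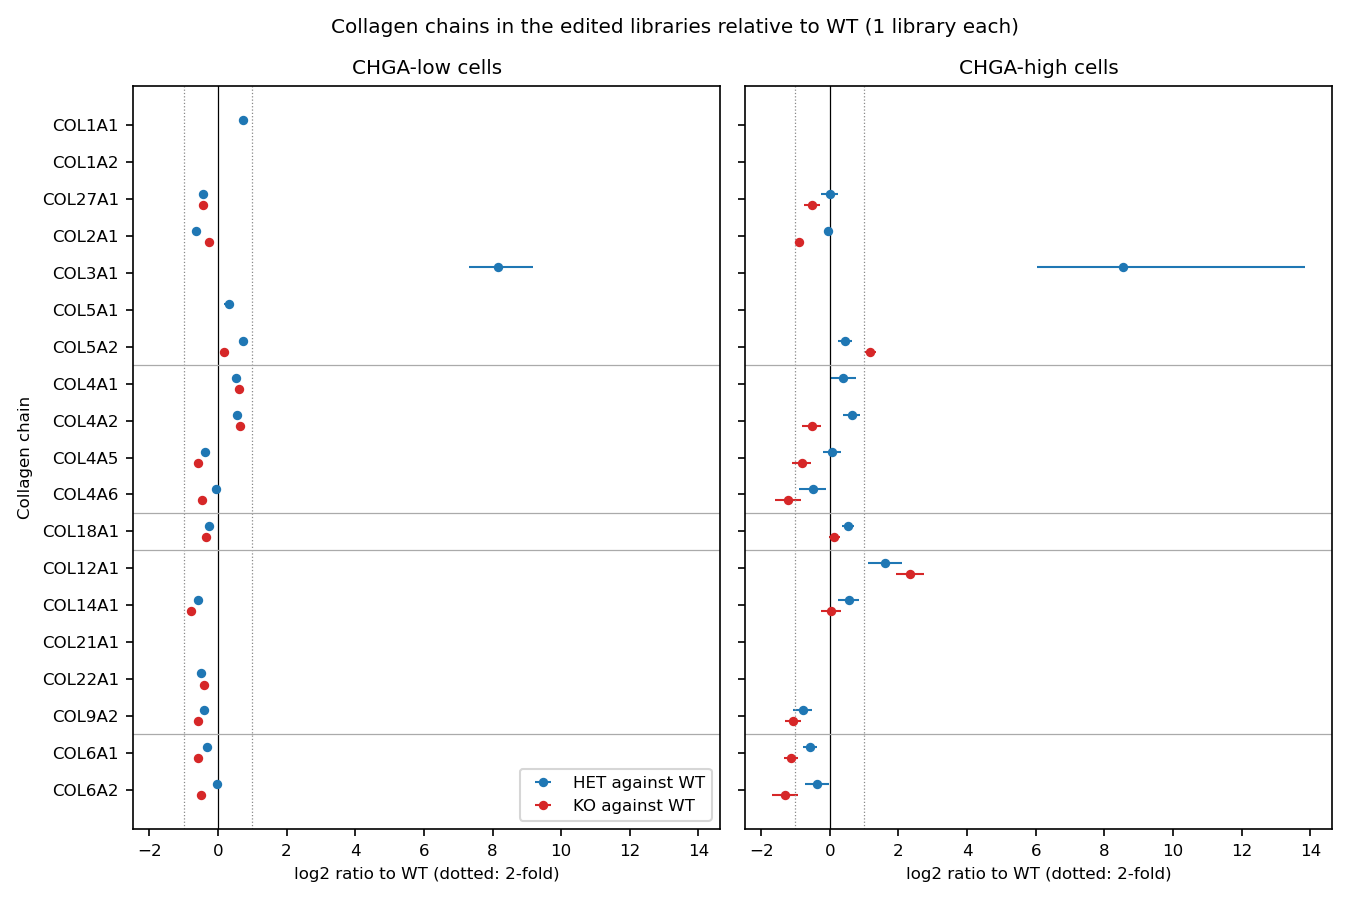
Log2 ratio of HET and KO to WT for the 19 chains in CHGA-low and CHGA-high cells, with 95% counting intervals and dotted lines at 2-fold. Ratios without a point were under 10 CPM in both sums or under 20 UMIs together (KO COL3A1 in CHGA-low cells, 34.0-fold higher, is not drawn), and COL3A1 in HET lies at 8.17 and 8.54 while all points drawn for CHGA-low cells other than that one lie between the dotted lines.

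Cell make-up differed between the libraries, so the chains were also followed in the 17 clusters, whose levels are plain CPM of the cluster's own total. Clusters of the same library share its depth, so clusters that go the same way are not replicates. Directions were not counted over all genes, so the counts of clusters below have no background share and are a description. COL4A1 and COL4A2 were each higher in HET than in WT in 14 of 15 clusters with at least 20 cells in both, and higher in KO than in WT in 12 of 14. Cluster 8, led by MYL7, MYOF and EGFL6, had the highest levels of both in each library and held 277, 250 and 1088 cells. Its COL4A2 level was 117, 216 and 217 CPM and its COL4A1 level 97.6, 156 and 137 CPM. In KO it held 36.3% of all COL4A2 UMIs, against 9.25% in WT and 8.78% in HET. With 11 clusters weighing the same, the mean level was 44.4, 69.6 and 59.96 CPM for COL4A1 and 68.2, 108 and 96.3 CPM for COL4A2.

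COL6A1 and COL6A2 were lower in KO than in WT in all 14 clusters, and COL9A2 in 13. These clusters come from the same libraries, so the counts do not replicate the difference between genotypes. COL2A1 was lower than in WT in 11 of 15 clusters in HET and 11 of 14 in KO. Its highest level in each library was in cluster 6, led by SHOX2 and WDR72, with 1803, 1403 and 1777 CPM. COL14A1 was highest in cluster 7, led by AOC1, with 289, 220 and 194 CPM. That cluster held 1469, 417 and 353 cells, and with 11 clusters weighing the same COL14A1 stood at 118, 112 and 94.7 CPM, compared with 134, 98.3 and 85.1 plain CPM over all CHGA-low cells. COL1A1, higher in the HET sum, was lower in HET than in WT in 11 of 15 clusters.

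COL3A1 was concentrated in cluster 12, led by TFAP2B, CXCL14 and VTCN1, which had 0, 571 and 119 cells. In HET this cluster reached 347 CPM and held 88.1% of the library's COL3A1 UMIs, while the other 16 clusters had 1.78 to 11.8 CPM (median 4.38). In KO it reached 186 CPM and held 72.5%, while the others had 0 to 5.27 CPM. In WT no cluster passed 0.917 CPM. After thinning, 32.3% of TFAP2B-positive cells in HET and 19.8% in KO had a COL3A1 UMI, against 3.28% of CHGA-high cells in HET and 1 of 6451 CHGA-low cells in WT (0.0155%). Unthinned these shares were 52.0, 41.3, 7.81 and 0.168%. COL1A1, COL1A2 and COL21A1 were also highest in cluster 12 in both HET and KO. The part of free RNA in the low level of other HET clusters was not tested.

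**Figure D5:**
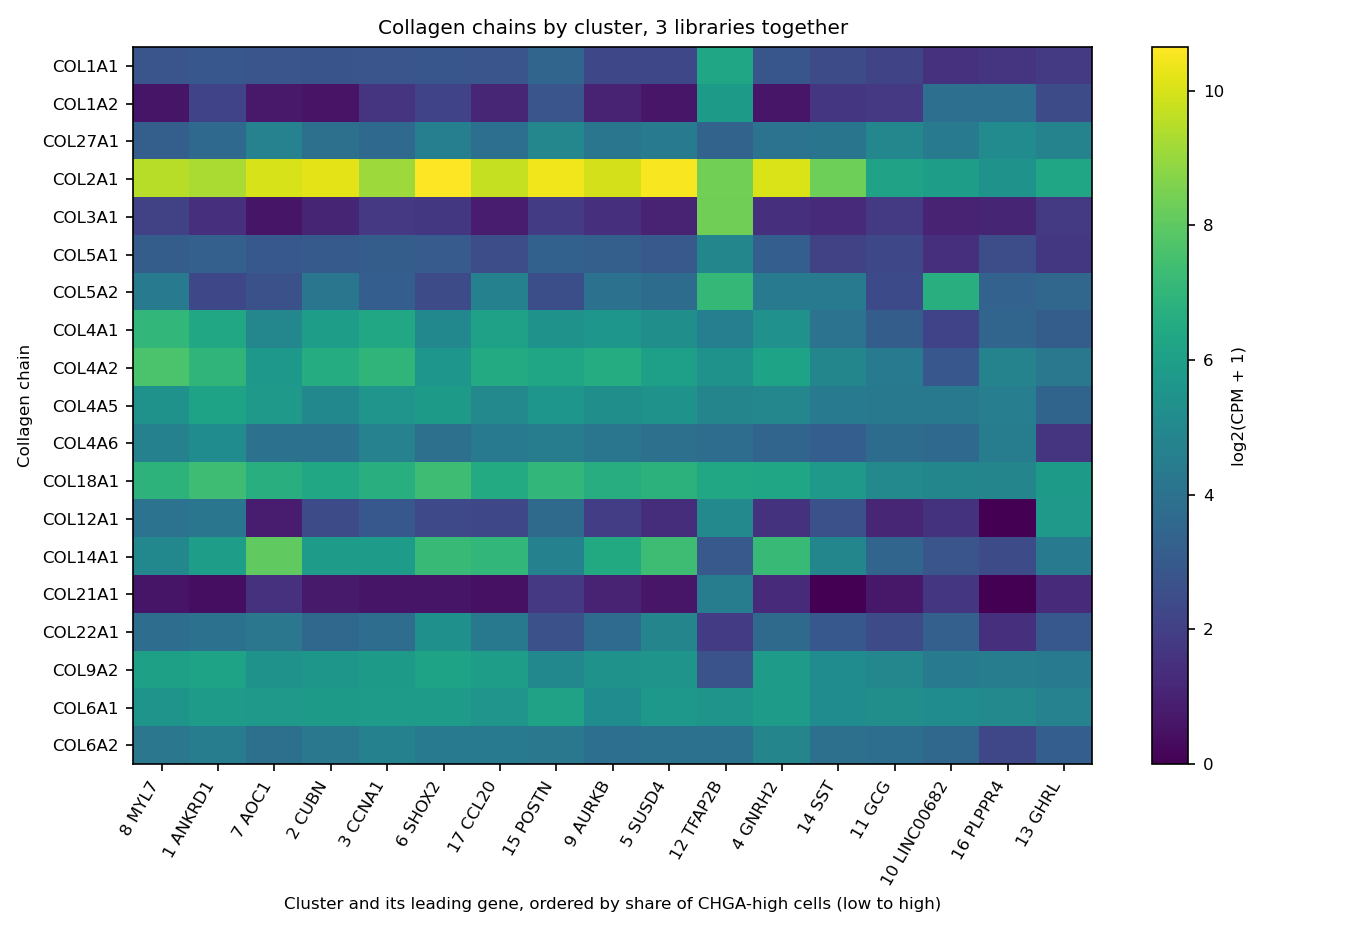
Levels of the 19 chains as log2(CPM + 1) (colour) in 17 clusters over the 3 libraries together, each named by its number and leading gene and ordered from left to right by a rising share of CHGA-high cells. COL2A1 is bright in nearly all clusters left of the endocrine ones, and COL3A1 is bright in cluster 12 alone.

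Endocrine clusters differed among themselves in the chains that were higher in CHGA-high cells. Cluster 10, led by LINC00682, TLX2 and PHOX2A, with 368, 139 and 452 cells, had COL5A2 at 74.6, 97.3 and 122 CPM. In cluster 13, led by GHRL (ghrelin), CRH and MLN, COL12A1 stood at 86.0, 36.5 and 52.6 CPM. That cluster had 35, 95 and 335 cells, so COL12A1 was highest there in WT while the CHGA-high sum was highest in KO. The part of cell make-up in the CHGA-high ratios was not tested.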

How the data were processed

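The deposited files hold UMI counts per gene and cell for 3 libraries, made by the authors with Cell Ranger 6.1.2 per the file headers. GRCh38 and Seurat stand in the submitters' processing notes without a role, and whether the 3′ or 5′ end was read is not given in the sources used here. Cells with at least 1000 UMIs, 500 genes and at most 20% mitochondrial UMIs were kept. A strict filter (3000 UMIs, 10%) was an alternative. The 8% of barcodes with the highest Scrublet score in each library were left out as likely doublets, and its automatic threshold, tried as an alternative, called 0 cells. Raw counts were summed per library and class.

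Class differences were tested with edgeR 4.0.16 (R 4.3.3), glmQLFit and glmQLFTest with the library as a block, on genes passing filterByExpr, with Benjamini-Hochberg adjustment over all genes tested. DESeq2 1.42.0 was an alternative. Both classes come from the same libraries, so the block follows the samples. The fit was tested on simulated data. Library ratios had no test, and TMM was computed over 11 sums. Clusters were made with scanpy 1.11.5 and leidenalg 0.10.2 (2000 variable genes without collagen genes, 30 components, 20 neighbours, resolution 1) and are called by number and leading genes.

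Lengths and gene positions are from GENCODE 29. A chain was described in full at 20 CPM or more in a sum. Other genes were named when they had 20 CPM in a sum and were among the 3 of their list with the largest difference, except that PDGFRA, PRRX1, TCF21, FOXF1 and the cartilage genes were chosen for their known roles. The chains, lists and tests were chosen with earlier results of these data known. The ratios of HET and KO to WT in TFAP2B-positive cells were planned but had no WT cells, and KO was set against HET there.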

Additional observations from a re-analysis of the deposited data

How the results depend on the processing

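Without the replicate block, 18 chains were called between CHGA-high and CHGA-low cells and 16 between TFAP2B-positive and other CHGA-low cells, compared with 22 and 17 with the block. COL1A2, COL3A1, COL4A6 and COL11A2 lost their call in the first comparison and COL28A1 in the second. Leaving out 1 library gave 18 to 22 calls in the first comparison, and in the second it left 1 library and no test. DESeq2 gave 22 and 15 calls, and the other alternatives 20 to 23 and 13 to 20. The COL3A1 difference between CHGA-high and CHGA-low cells turned to 0.29 when CHGA-low cells with TFAP2B UMIs were left out.

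The basement membrane share of CHGA-high minus CHGA-low cells turned to -1.14 points with a CHGA threshold of 5 and to -32.6 points without COL2A1, and ranged from -1.04 to 2.53 when 1 library was left out. With at least 50 CPM, chains past 2-fold numbered 0 for HET against WT in CHGA-low cells, 1 for KO against WT and 0 for HET against WT in CHGA-high cells, and 0 for KO against HET in TFAP2B-positive cells. The HET count in CHGA-low cells was also 0 with clusters weighing the same and without the cluster led by TFAP2B, because COL3A1 then lay under 10 CPM: with clusters weighing the same it stood at 5.47 CPM in HET and 0.146 CPM in WT, and it was higher in HET in 15 of 15 clusters. The HET count in CHGA-high cells was 1 with a CHGA threshold of 5. The count in TFAP2B-positive cells was 2 with the strict cell filter and 2 with at least 2 TFAP2B UMIs. The causes were not tested, except that a higher minimum leaves fewer chains to count.

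For single chains, 1098 alternative values kept their call or value, 45 lost a call, 6 gained one, 21 moved and 1 reversed. Chains with few UMIs limit most: COL3A1 in WT rests on 1 UMI in CHGA-high cells and 11 in CHGA-low cells, and no difference between genotypes has a replicate.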
